A study of Mus musculus with 2 samples.

Results

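The microRNA genes described here are the 9 paralogs of the Mir17 cluster in the mouse. Mir106b, Mir93 and Mir25 lie together inside Mcm7 on chromosome 5 and are called the Mir106b cluster below. Mir106a, Mir18b, Mir20b, Mir19b-2, Mir92-2 and Mir363 lie together on the X chromosome and are called the Mir106a cluster. They were found by matching Ensembl gene identifiers to gene symbols, without use of any measured value, and all 9 of 9 were among the 1973 genes counted. The tissue is the facial prominence, from which jaws, palate and nose develop, and its small RNA had been sequenced at embryonic day 15.5 in mice of strain B6NCrl. Replicate 1 pooled 78 embryos and replicate 2 pooled 62 embryos, males and females together, and the labels give both pools the same donor entry. There was 1 group and no treatment, so the design allows a description of levels over 2 libraries and a comparison of replicate 2 with replicate 1.

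A microRNA is cut from a hairpin in a longer transcript, and bases 2 to 8 of the mature strand, the seed, pair with sites in messenger RNAs and lower their translation and stability. MicroRNAs with the same seed share many targets. The Mir17 cluster, on chromosome 14, and its paralogs arose by duplication of an ancestral cluster and carry 4 kinds of seed, named here after Mir17, Mir18, Mir19 and Mir92. MYC and E2F factors are known to raise these clusters in dividing cells, and known targets include cell cycle inhibitors such as Cdkn1a and the apoptosis gene Bcl2l11. In mice, loss of the Mir17 cluster is lethal around birth and is known to disturb palate closure. Loss of either paralog cluster alone is tolerated, while combined loss of the Mir17 and Mir106b clusters is lethal in mid-gestation.

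The deposited values were raw read counts per gene, taken here on either strand and given as CPM, counts scaled to a common library size with TMM factors. Totals were 5840705 reads in replicate 1 and 14085643 in replicate 2, of which 51.0% and 45.5% were assigned to a microRNA gene. A further 30.6% and 29.7% mapped to several places and were given to no gene, which bears on members with an identical copy elsewhere. Of the markers chosen for the tissue, 4 of 4 for surface epithelium, 2 of 2 for mesenchyme and 2 of 2 for cartilage were detected, that is, had at least 10 reads in each library. So were those for skeletal muscle (Mir206, 7850 and 5903 CPM) and endothelium (Mir126a, 24124 and 28452 CPM). Of the markers for other cells, blood (599 and 700 CPM summed over 2 genes), liver (Mir122, 30.4 and 70.1 CPM) and pluripotent cells (Mir302a, 37.1 and 49.6 CPM, with Mir367 at 0) were also detected. Their part in the members' levels was not tested. The 2 brain markers, Mir9-2 and Mir124a-1, stayed at or below 3 reads in each library, but both are known to have identical mature copies elsewhere, so these low counts do not show that brain RNA was absent. Levels are those of bulk tissue, in which fewer cells of a type and less RNA per cell cannot be told apart. An SD is over 2 libraries, and all 95% intervals cover counting error only.

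The mature sequences show which members can act on the same sites and how few bases set them apart from their copies in the Mir17 cluster. They come from RefSeq (GRCm38.p6), which held 9 of 9 members, and the seed is in capitals. The first set carries the Mir17 seed and holds 2 members from each cluster, followed by miR-17-5p and miR-20a-5p for comparison.
miR-106b-5p: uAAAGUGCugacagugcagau
miR-93-5p: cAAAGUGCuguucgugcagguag
miR-106a-5p: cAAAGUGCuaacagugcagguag
miR-20b-5p: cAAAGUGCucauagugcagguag
miR-17-5p: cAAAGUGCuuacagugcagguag
miR-20a-5p: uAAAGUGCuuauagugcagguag
Positions are counted from 1 at the 5′ end of the mature strand, with the base of miR-17-5p first. miR-106a-5p differed from miR-17-5p by U10A alone. miR-20b-5p differed by U10C and C12U. miR-106b-5p differed by C1U, U10G and G20A over 21 bases, and miR-93-5p by U10G, A11U, C12U and A13C. All 4 members of this set therefore differ from miR-17-5p at the same base, position 10, and 0 of these differences fall in the seed.

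The Mir18 and Mir19 seeds occur only in the Mir106a cluster among the members, each in 1 gene. They are shown with miR-18a-5p of the Mir17 cluster.
miR-18b-5p: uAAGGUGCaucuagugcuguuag
miR-18a-5p: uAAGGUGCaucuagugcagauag
miR-19b-3p: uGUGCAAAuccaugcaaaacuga
With the base of miR-18a-5p first, miR-18b-5p differed by A18U and A20U, both near the 3′ end. The miR-19b-3p sequence is the same from Mir19b-2 on the X chromosome and from Mir19b-1 in the Mir17 cluster.

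The Mir92 seed occurs in 3 members, Mir25 of the Mir106b cluster and Mir92-2 and Mir363 of the Mir106a cluster.
miR-25-3p: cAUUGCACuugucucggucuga
miR-92a-3p: uAUUGCACuugucccggccug
miR-363-3p: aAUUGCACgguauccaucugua
The miR-92a-3p sequence is made from both Mir92-2 and Mir92-1 of the Mir17 cluster, with 0 differences over 21 bases. With the base of miR-92a-3p first, miR-25-3p differed by U1C, C14U and C18U. miR-363-3p shared the seed but differed at 11 of 21 positions, the most of any member from its copy in the Mir17 cluster.

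In the genome (mm10, GRCm38), the 3 genes of the Mir106b cluster lie within 498 bases on the minus strand of chromosome 5. Mir106b is at chr5:138165737-138165818, Mir93 at chr5:138165523-138165610 and Mir25 at chr5:138165321-138165404. All 3 are in intron 13 of the principal transcript of Mcm7, which has 15 exons and encodes a subunit of the helicase that opens replication origins. Mir93 and Mir25 also fall wholly within exon 1 of a short Mcm7 transcript of 2 exons. Their hairpins are printed to show where the reads of these genes can come from, with the seed-bearing mature arm in capitals.
Mir106b: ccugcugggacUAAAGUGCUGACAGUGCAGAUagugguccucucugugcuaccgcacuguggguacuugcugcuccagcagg
Mir93: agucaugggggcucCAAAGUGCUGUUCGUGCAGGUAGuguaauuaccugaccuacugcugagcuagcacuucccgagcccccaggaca
Mir25: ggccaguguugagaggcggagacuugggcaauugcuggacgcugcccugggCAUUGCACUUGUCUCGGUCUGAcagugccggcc
The arm with the family seed is the 5′ arm in Mir106b and Mir93 and the 3′ arm in Mir25. The counts are per gene and do not separate the arms of a hairpin.

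The 6 genes of the Mir106a cluster lie within 875 bases on the minus strand of the X chromosome. Mir106a is at chrX:52742503-52742567, Mir18b at chrX:52742331-52742413 and Mir20b at chrX:52742113-52742192. Mir19b-2 is at chrX:52741983-52742066, Mir92-2 at chrX:52741838-52741928 and Mir363 at chrX:52741693-52741767. Mir106a overlaps the last exon of Kis2, a processed transcript known as a site of retroviral insertion in mouse T-cell lymphoma, by 5 bases in 3 of its 4 transcripts and by 3 in the other. The other 5 members overlap no other annotated gene on their strand. The 6 genes of the Mir17 cluster lie within 836 bases of exon 2 of Mir17hg, a long noncoding RNA on the plus strand of chromosome 14.

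**Figure D1:**
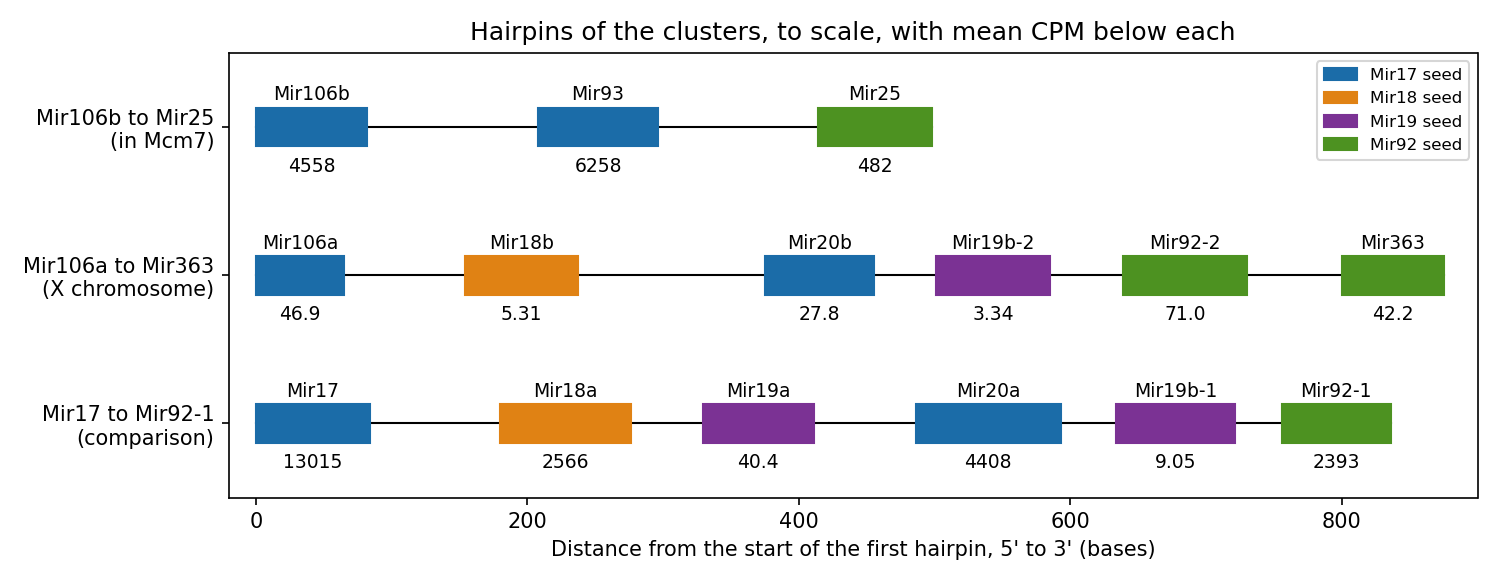
Map of the hairpins of the 3 clusters, drawn to scale from the start of the first hairpin in the direction of transcription (x axis, bases), coloured by seed, with the mean CPM of each gene below it. The Mir106b cluster holds Mir17 and Mir92 seeds only, in 498 bases, while the Mir106a cluster spans 875 bases and holds all 4 kinds of seed.

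The Mir106b cluster was abundant and the Mir106a cluster was scarce in the facial prominence. Mir93 had 6440 CPM in replicate 1 and 6076 CPM in replicate 2 (mean 6258 ± 257, SD, n = 2), from 19275 and 38749 reads. Mir106b had 4909 and 4208 CPM (4558 ± 496), from 14693 and 26832 reads. Mir25 had 488 and 476 CPM (482 ± 8.87), from 1461 and 3033 reads. In both libraries the order was Mir93, Mir106b and Mir25, and Mir25 lay well below its neighbours although all 3 hairpins share an intron. By mean CPM, Mir93 ranked 34th, Mir106b 48th and Mir25 127th of all genes counted.

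The 6 members on the X chromosome had from 3.34 to 71.0 CPM on average. Mir92-2 had 79.2 CPM in replicate 1 and 62.9 CPM in replicate 2 (71.0 ± 11.5, SD, n = 2), from 237 and 401 reads. Mir106a had 44.1 and 49.7 CPM (46.9 ± 3.96), from 132 and 317 reads. Mir363 had 42.8 and 41.6 CPM (42.2 ± 0.858), from 128 and 265 reads. These 3 genes and Mir20b made up most of the cluster. Mir20b had 28.1 and 27.6 CPM (27.8 ± 0.331), from 84 and 176 reads. Mir18b had 4.34 and 6.27 CPM (5.31 ± 1.36), from 13 and 40 reads, and Mir19b-2 had 4.01 and 2.67 CPM (3.34 ± 0.950), from 12 and 17 reads. The last 2 genes, with 13 and 12 reads in replicate 1, were near the limit of 10 reads for detection there. For scale, 3 reads are worth 1.00 CPM in replicate 1 and 0.470 CPM in replicate 2.

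**Figure D2:**
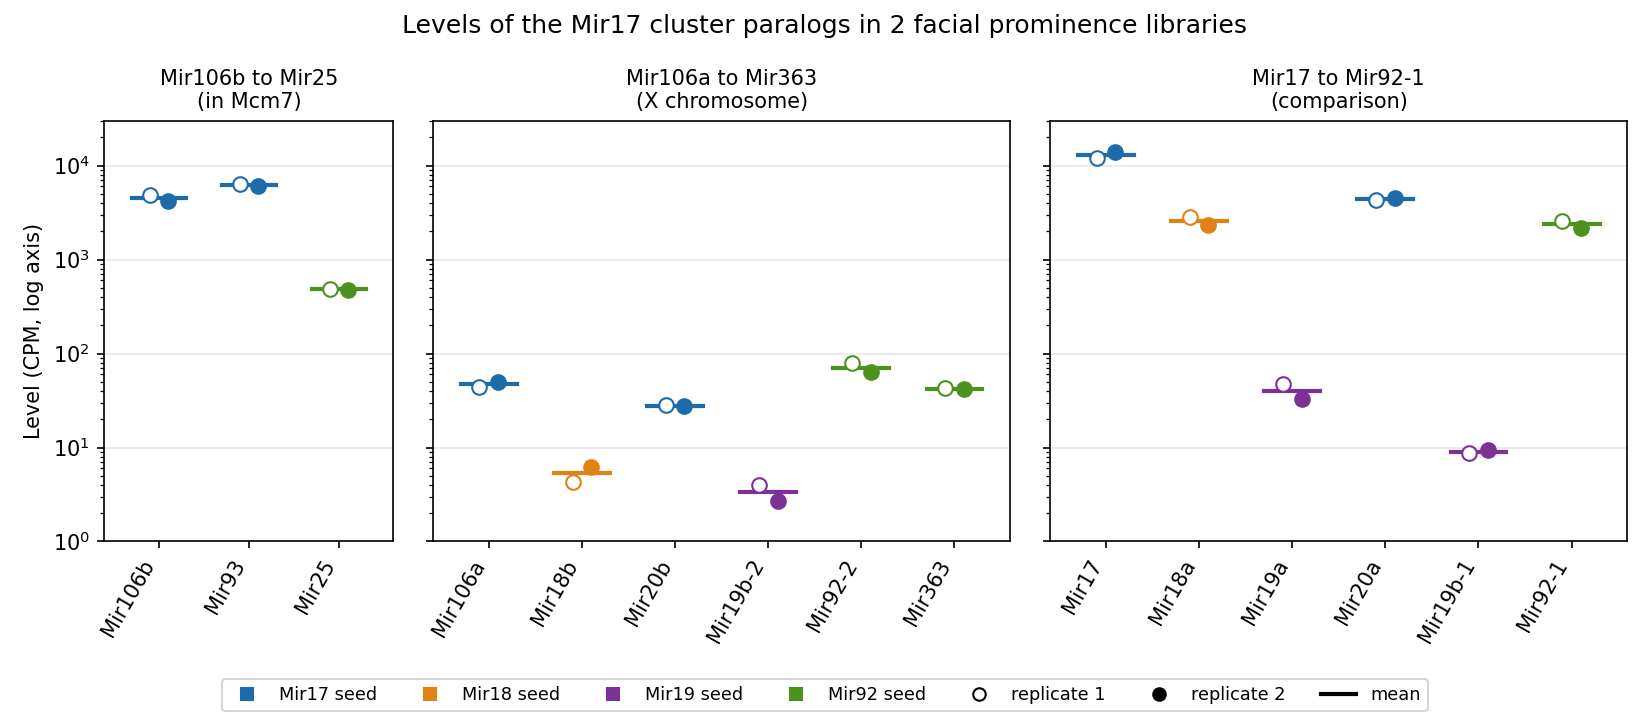
Level of each gene in each library (y axis, CPM, log scale), with open points for replicate 1, filled points for replicate 2 and a bar at the mean, coloured by seed. Mir93 and Mir106b sit near Mir20a (4408 CPM) and below Mir17 (13015 CPM), while the members on the X chromosome sit at or below 79.2 CPM in both libraries.

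Between genes, levels were compared per kilobase of hairpin, because the members' hairpins differ in length from 65 to 91 bases. The RNA sequenced was below 30 bases, so the number of reads need not follow hairpin length. An order that rests on the division by length is therefore uncertain. Mir93 had 71117 ± 2924 CPM per kilobase, 1.28 times the 55590 ± 6051 of Mir106b, and Mir106b in turn was 9.69 times Mir25. Mir25 was 7.35 times Mir92-2, which had the highest mean of the members on the X chromosome, but Mir92-2 came above Mir25 when identical copies were summed into the members. Mir92-2 (781 ± 127 CPM per kilobase) and Mir106a (722 ± 61.0) overlapped on this scale, since Mir92-2 was 1.28 times Mir106a in replicate 1 and 0.904 times in replicate 2. Without the division by length they did not overlap. Mir92-2 then had 1.80 times the reads of Mir106a in replicate 1 (95% exact interval 1.45 to 2.24) and 1.26 times in replicate 2 (1.09 to 1.47). Mir106a was 1.28 times Mir363 in the mean. By reads, though, Mir106a against Mir363 was 1.03 in replicate 1 (95% exact interval 0.803 to 1.33) and 1.20 in replicate 2 (1.01 to 1.41), so their order was not resolved in replicate 1. Mir363 was 1.62 times Mir20b per kilobase, and Mir20b was 5.44 times Mir18b. Mir18b and Mir19b-2 could not be ordered in replicate 1, where the ratio of reads was 1.08 (0.456 to 2.60), while in replicate 2 it was 2.35 (1.30 to 4.43).

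Mir92-2 and Mir19b-2 on the X chromosome have an identical mature copy in the Mir17 cluster, and their hairpins are printed with those of the copies to show how much sequence can tell them apart. The seed-bearing arm is in capitals.
Mir92-2: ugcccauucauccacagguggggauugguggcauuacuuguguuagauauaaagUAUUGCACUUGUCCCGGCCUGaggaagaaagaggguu
Mir92-1: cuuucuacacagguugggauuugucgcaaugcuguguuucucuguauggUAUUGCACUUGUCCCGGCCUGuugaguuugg
Mir19b-2: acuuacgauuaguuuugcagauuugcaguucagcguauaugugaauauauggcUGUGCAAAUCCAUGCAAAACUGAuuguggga
Mir19b-1: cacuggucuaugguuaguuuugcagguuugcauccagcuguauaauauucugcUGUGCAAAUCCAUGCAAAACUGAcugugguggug
Mir92-2 and Mir92-1 share a run of 22 bases that covers the whole mature arm, and Mir19b-2 and Mir19b-1 share a run of 25 bases. A read that lies inside such a run matches both hairpins. The longest run that each of the other 7 members shares with another annotated hairpin is 12 to 17 bases, shorter than a mature microRNA.

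The counts of Mir92-2 and Mir19b-2 are therefore uncertain and rest on reads that the deposited counting gave to 1 hairpin. Mir92-2 had 3.05% as many reads as Mir92-1 in replicate 1 (95% exact interval 2.67 to 3.47) and 2.87% in replicate 2 (2.59 to 3.17). Mir19b-2 had 46.2% (21.2 to 94.8) and 28.3% (15.5 to 49.2) as many as Mir19b-1. When the reads of both copies were given to the member, the mean of Mir92-2 went from 71.0 to 2464 CPM and Mir19b-2 from 3.34 to 12.4 CPM. How the several-place reads divide between the copies was not tested.

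Mir106a differs from Mir17 by the U10A change alone and had 0.366% as many reads in replicate 1 (0.306 to 0.434) and 0.355% in replicate 2 (0.317 to 0.397). The shares did not differ between the libraries beyond counting error, with an adjusted p of 0.794 (Fisher's exact test, adjusted over 9 pairs of member and copy). Among detected genes there were 7 pairs whose mature arms, of the same length, differ by 1 base and whose more abundant gene had at least 10000 reads in each library. Mir106a and Mir17 had the lowest share of these, and the other 6 pairs had 3.24 to 30.9% in replicate 1 and 3.80 to 38.6% in replicate 2. The gene with the lowest of these other shares has the same mature arm as a gene of another pair. Its count can therefore lack several-place reads. How many Mir106a reads are Mir17 reads with 1 base read otherwise was not tested.

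The other members were set against a nearest relative by mature sequence in the Mir17 cluster in the same way, per kilobase of hairpin. On the X chromosome, Mir20b was at 0.226 ± 0.0265% of Mir17 and at 0.845 ± 0.0318% of Mir20a (SD, n = 2). Mir18b was at 0.246 ± 0.0965% of Mir18a, and Mir363 at 1.89 ± 0.186% of Mir92-1. In the Mir106b cluster the shares were far higher, at 46.3 ± 6.78% of Mir17 for Mir93, 36.3 ± 7.74% of Mir17 for Mir106b and 19.3 ± 1.93% of Mir92-1 for Mir25. For these last 3 genes the share of reads differed between the libraries beyond counting error, with adjusted p of 3.06e-81 for Mir93, 2.59e-138 for Mir106b and 0.000132 for Mir25 (Fisher's exact test). Mir93 and Mir106b had larger shares of Mir17 in replicate 1, and Mir25 had a larger share of Mir92-1 in replicate 2. Mir20a is as near in sequence as Mir17 to Mir93, with 4 differences, and to Mir106b, with 3. Mir93 (71117 ± 2924 CPM per kilobase) and Mir106b (55590 ± 6051) were both above Mir20a (41195 ± 1061). Without the division by length, Mir106b was above Mir20a in replicate 1 (4909 against 4328 CPM) and below it in replicate 2 (4208 against 4488 CPM).

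Summed over genes, the Mir106b cluster had 11838 CPM in replicate 1 and 10760 CPM in replicate 2 (mean 11299 ± 762, SD, n = 2), which was 1.19% and 1.07% of assigned reads. The Mir106a cluster had 202 and 191 CPM (197 ± 8.34), or 0.0203% and 0.0190% of assigned reads. The Mir106b cluster thus had 58.5 times the reads of the Mir106a cluster in replicate 1 (95% exact interval 54.0 to 63.5) and 56.4 times in replicate 2 (53.3 to 59.8). Per kilobase of hairpin the ratio was 52.6 ± 2.02. The ratio of reads did not differ beyond counting error between the libraries, with a log2 difference of -0.05 (-0.20 to 0.09) and an adjusted p of 0.485 (Fisher's exact test, 6 ratios).

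The size of this ratio rests on how identical copies are treated. The mean over libraries was 57.4 as counted, 92.6 without Mir92-2 and Mir19b-2, and 4.36 when the reads of Mir92-1 and Mir19b-1 were added to the members. The Mir106b cluster was the higher one in each of these. None of them includes the reads that mapped to several places, so the order of the clusters with those reads was not tested.

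The Mir17 cluster had 21844 and 23018 CPM (22431 ± 830). Per kilobase of hairpin it was 1.92 ± 0.207 times the Mir106b cluster and 101 ± 7.01 times the Mir106a cluster. Its ratio to the Mir106b cluster differed between the libraries, at 1.85 by reads in replicate 1 and 2.14 in replicate 2 (adjusted p = 4.47e-74, Fisher's exact test). Its ratio to the Mir106a cluster was 108 by reads in replicate 1 and 121 in replicate 2 (adjusted p = 0.0375). Both ratios were higher in replicate 2.

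The clusters also differed in how their reads divided over genes grouped by seed. Each gene is placed by the seed of its family arm. The counts do not separate the arms, so how many reads carry that seed is not known. In the Mir106b cluster, 95.9% of reads in replicate 1 and 95.6% in replicate 2 came from the Mir17 seed genes Mir93 (54.4% and 56.5%) and Mir106b (41.5% and 39.1%). The remaining 4.12% and 4.42% came from Mir25, with the Mir92 seed. In the Mir106a cluster as counted, the Mir92 seed led instead, with 60.2% and 54.8% of reads, from Mir92-2 (39.1% and 33.0%) and Mir363 (21.1% and 21.8%). The Mir17 seed took 35.6% and 40.5% there, from Mir106a (21.8% and 26.1%) and Mir20b (13.9% and 14.5%). Mir18b gave 2.15% and 3.29%, and Mir19b-2 gave 1.98% and 1.40%. The Mir17 cluster lay between them, with 74.9% and 80.3% for its Mir17 seed and 11.9% and 9.53% for Mir92-1. The order of seeds in the Mir106a cluster turns with the treatment of identical copies. Without Mir92-2 and Mir19b-2, the Mir17 seed led there, with 216 of 357 reads (60.5%, 95% exact interval 55.2 to 65.6) in replicate 1 and 493 of 798 (61.8%, 58.3 to 65.2) in replicate 2. Mir363 then gave the Mir92 seed 35.9% and 33.2%.

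**Figure D3:**
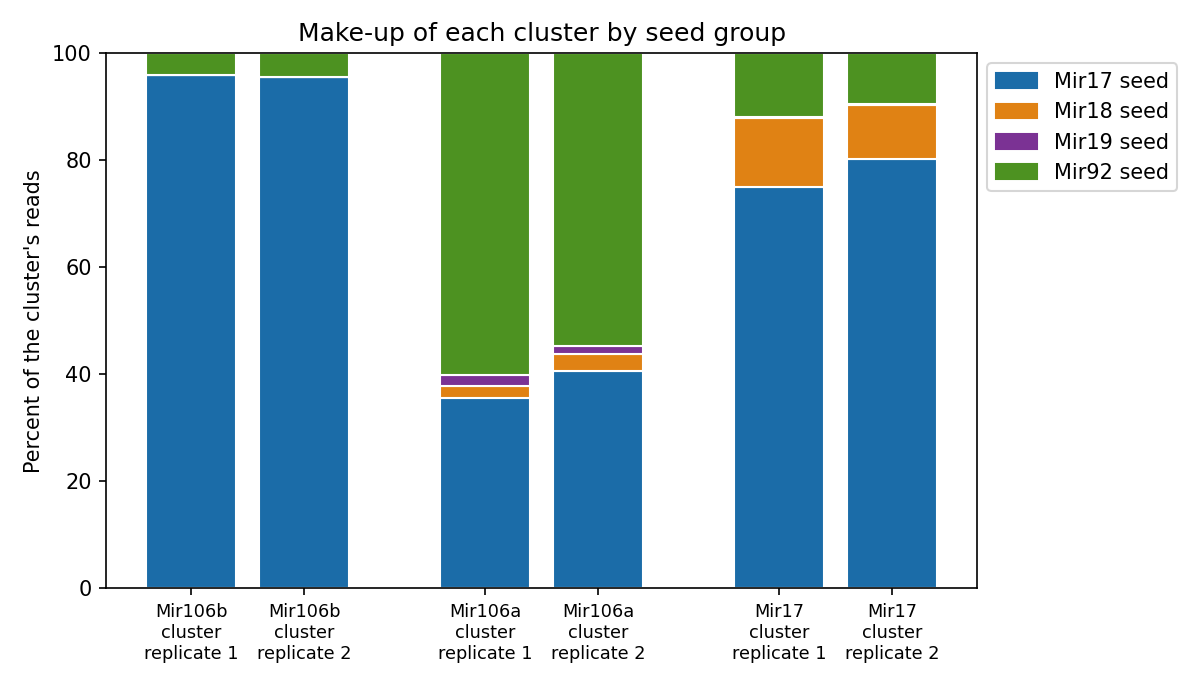
Share of each cluster's reads by the seed group of the gene (y axis, percent), with 1 bar for each cluster and library. The Mir17 seed fills 95.9% and 95.6% of the Mir106b cluster, while the Mir92 seed fills 60.2% and 54.8% of the Mir106a cluster as counted, a lead that passes to the Mir17 seed (60.5% and 61.8%) without Mir92-2 and Mir19b-2.

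Seen from the seed groups, the paralogs supplied a sizeable part of the reads of Mir17 and Mir92 seed genes and little of the others. Of all reads from the 6 Mir17 seed genes of the 3 clusters, the members gave 41.1% in replicate 1 (95% exact interval 40.8 to 41.4) and 35.9% in replicate 2 (35.7 to 36.2). Nearly all of it came from Mir93 and Mir106b, and the X chromosome gave 0.260% and 0.268%. Of the reads of Mir92 seed genes, the members gave 19.0% (18.3 to 19.8) and 20.9% (20.3 to 21.5), mostly from Mir25, with 3.81% and 3.77% from the X chromosome.

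Of the reads of Mir18 seed genes, Mir18b gave 0.154% (0.0818 to 0.262) and 0.271% (0.194 to 0.369). Of the reads of Mir19 seed genes, Mir19b-2 gave 6.63% (3.47 to 11.3) and 5.90% (3.48 to 9.28), out of 181 and 288 reads in all. Reads of Mir19 seed genes were thus scarce as counted in both clusters that hold them. Over the 15 genes, the members made up 35.5% and 32.2% of reads (33.9 ± 2.33%, SD, n = 2), of which the Mir106a cluster was 0.598% and 0.561%. Per kilobase of hairpin the members' share was 34.8 ± 2.43%.

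Outside the 3 clusters, 4 further annotated microRNAs carry the Mir17 or Mir92 seed. Mir6383, with the Mir17 seed, and Mir367, a microRNA of pluripotent cells with the Mir92 seed, had 0 reads in both libraries. The other 2 have the Mir92 seed and were detected.
miR-92b-3p: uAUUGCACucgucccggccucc
miR-32-5p: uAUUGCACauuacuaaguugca
Mir92b had 652 CPM in replicate 1 and 1134 CPM in replicate 2 (893 ± 341, SD, n = 2), and Mir32 had 153 and 129 CPM (141 ± 17.3). With them counted in, Mir25, Mir92-2 and Mir363 together gave 15.2% of the reads of Mir92 seed genes in replicate 1 (14.6 to 15.9). In replicate 2 they gave 14.4% (13.9 to 14.8). Mir25 alone gave 12.2% and 11.8%. Mir92-1 gave 64.7% and 54.3%, and Mir92b 16.3% and 28.1%. Mir92-1 loses the same several-place reads as Mir92-2, its identical copy, so its count and the shares of Mir25, Mir92-2 and Mir363 set against it are uncertain too.

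Between the libraries, 3 of the 9 members differed, all of them higher in replicate 1, and the differences were small. Each gene that reached 10 reads in both libraries was tested for a departure of its reads from the ratio of the scaled library sizes (exact binomial test, 2-sided, with Benjamini-Hochberg adjustment over 333 genes and a threshold of 0.05). With 1 library on each side there is no estimate of spread, so the test speaks of these 2 libraries and of counting error alone. Of all 333 genes, 53.5% were called, with 25.8% higher in replicate 2 and 27.6% higher in replicate 1. At this read filter the members' 33.3% was below that background, with 0 of 9 higher in replicate 2 and 3 of 9 higher in replicate 1. With no filter, 3 of 9 members were called beside 186 of 708 genes, against 178 of 333 with the filter. The genes added have fewer than 10 reads in a library, and few of them can pass the test. All 9 members had passed the filter, so their higher share without it says nothing about the members. With at least 100 reads in each library, 3 of 6 members were called beside 165 of 247 genes, again below the background. The members' median log2 ratio of replicate 2 over replicate 1 was -0.04, beside -0.01 over all genes tested.

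In the Mir106b cluster, Mir106b had the larger difference. Its 4208 CPM in replicate 2 against 4909 in replicate 1 gave a log2 ratio of -0.22 (95% exact interval -0.25 to -0.19, adjusted p = 2.34e-49, exact binomial test). Mir93 gave -0.08 (-0.11 to -0.06, adjusted p = 1.83e-10), and Mir25 was not called, at -0.04 (-0.13 to 0.05, adjusted p = 0.533). Neighbours in the same intron thus differed unequally. The ratio of Mir93 to Mir106b reads was 1.31 in replicate 1 and 1.44 in replicate 2, with an adjusted p of 3.99e-12 (Fisher's exact test). The ratio of Mir106b to Mir25 was 10.1 and 8.85 (adjusted p = 0.000252), and that of Mir93 to Mir25 was 13.2 and 12.8 (adjusted p = 0.408).

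On the X chromosome, Mir92-2 alone was called, at a log2 ratio of -0.33 (-0.57 to -0.09, adjusted p = 0.0114, exact binomial test). The ratio of Mir92-1, its identical copy, was -0.24, and the share of Mir92-2 in Mir92-1 did not differ between the libraries beyond counting error (adjusted p = 0.507, Fisher's exact test). Mir106a (0.17, -0.12 to 0.48), Mir20b (-0.02, -0.41 to 0.37) and Mir363 (-0.04, -0.35 to 0.27) were not called. Mir18b (0.53, -0.40 to 1.56) and Mir19b-2 (-0.59, -1.74 to 0.61) had intervals too wide for a change of that size to be detectable at this depth. The intervals of Mir18b, Mir20b, Mir19b-2 and Mir363 all take in the log2 ratio at which Mir106b, a far deeper gene, was called.

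The Mir17 cluster had 5 of 6 genes called, with 2 higher in replicate 2 and 3 higher in replicate 1. Mir17 had a log2 ratio of 0.22 (adjusted p = 1.58e-128, exact binomial test), opposite in sign to Mir106b and Mir93, which share its seed. Summed over all 15 genes, the clusters had 33884 and 33968 CPM (33926 ± 59.4, SD, n = 2), while the 9 members had 12040 and 10950 CPM (11495 ± 771). Of the 2 detected relatives outside the clusters, Mir92b was higher in replicate 2 (log2 ratio 0.80, 0.73 to 0.87, adjusted p = 8e-114) and Mir32 was higher in replicate 1 (-0.25, -0.42 to -0.08, adjusted p = 0.00696).

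**Figure D4:**
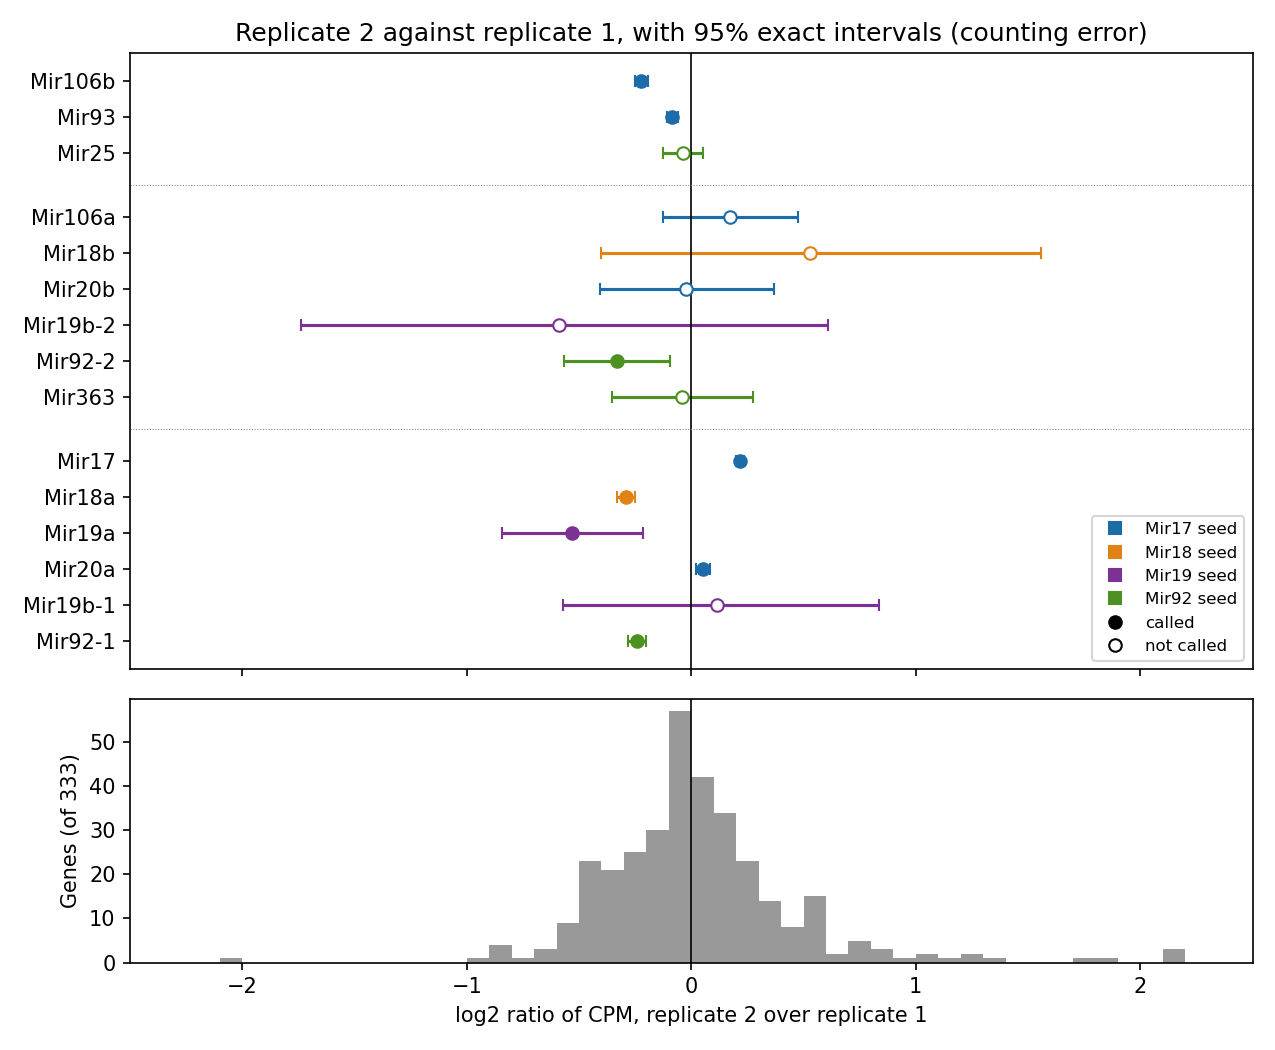
Log2 ratio of each gene's CPM, replicate 2 against replicate 1 (x axis), with its 95% exact interval (upper panel; filled points passed the test) and the number of all 333 tested genes by log2 ratio (lower panel, y axis). Mir106b, Mir93 and Mir92-2 lie left of 0 with intervals that do not reach it, and Mir18b and Mir19b-2 have the widest intervals among the members.

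Apart from Mir19b-2, the members' log2 ratios lay within the range of most other genes. Over the 333 genes the log2 ratios had an SD of 0.45 and ran from -0.52 at the 5th percentile to 0.77 at the 95th. Of the members, Mir19b-2 at -0.59, from 12 and 17 reads, lay outside that range. The common dispersion of edgeR corresponded to a coefficient of variation of 17.4% between the libraries, larger than the departure of Mir106b, Mir93 or Mir25 from equality.

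Reads on the strand opposite to the gene were 0 for all 9 members in both libraries. A count of 0 was taken to allow up to 3 reads, an approximate limit rather than an exact interval. Set against the reads of Mir93, the deepest member, this is up to 0.0156% in replicate 1 and 0.00774% in replicate 2. For Mir19b-2, the shallowest, it is up to 25.0% and 17.6%.

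By level over the 2 libraries, the genes most like the highest member of each cluster were found among the 333 detected genes. Closest to Mir93 in mean log2 CPM were Mir351 (6378 ± 971 CPM), Gm25927 (6092 ± 97.8) and Mir10b (5923 ± 226), at differences of 0.02, 0.04 and 0.08. By Euclidean distance in log2 CPM over both libraries, Gm25927 (0.07), Mir21a (0.15) and Mir10b (0.16) were closest. Mir92-2 is the highest member of its cluster as counted, and that uncertain count leaves out several-place reads, so its neighbours are those of the level as counted. The closest in mean were Mir675 (69.1 ± 4.23 CPM), Mir155 (69.0 ± 9.26) and Mir6236 (79.9 ± 46.0). By Euclidean distance, Mir133b (0.18), Mir701 (0.23) and Mir345 (0.27) were closest to Mir92-2. With 2 libraries, such likeness is one of level rather than of pattern.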

How the data were processed

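The authors deposited raw read counts per microRNA gene (mm10, GENCODE M4, per the labels), with 1973 genes and separate counts by strand. No aligner or counter is given in the sources used here. Reads that mapped to several places, equal to 60.1% and 65.3% of assigned reads in replicates 1 and 2, stayed out of genes and library sizes. Names and positions came from GENCODE M21 on the same build, and mature and hairpin sequences from RefSeq (GRCm38.p6).

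From the deposited counts on either strand, TMM factors were computed in edgeR 4.0.16 (R 4.3.3) and CPM from them. Genes were compared between the libraries by a 2-sided exact binomial test with Benjamini-Hochberg adjustment, tested on simulated data that held counting error alone. Ratios were compared by Fisher's exact test, and intervals are Clopper-Pearson at 95% (scipy 1.17.1). DESeq2 1.42.0 served for size factors as an alternative. Other alternatives changed the scaling, the read filter, the strand, the length scale, the treatment of identical copies and the replicates used. The labels describe separate pools, so the spread covers pooling, library preparation and sequencing together. The genes named are the 9 members, the 6 genes of the Mir17 cluster, other microRNAs with a member's seed, and the 3 genes nearest in level, by each of 2 measures, to the highest member of each cluster. Members and lists were chosen with earlier results of these data known.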

Additional observations from a re-analysis of the deposited data

How the results depend on the processing

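The number of members that differed between the libraries was 3 under every scaling, strand and read filter tried, and 2 with the members that have an identical copy left out. The number tested changed with the setting. It was 3 of 9 members beside 186 of 708 genes with no filter, and 3 of 6 beside 165 of 247 at 100 reads. Without the copies it was 2 of 7 beside 176 of 329. The members' share was above that of all genes with no filter and below it in the other 2. With no filter, the genes added had too few reads for most to be called, so the higher share says nothing about the members. The log2 ratios of single members kept their side of the threshold in 76 of 76 recalculations and their direction in 75, the exception being Mir20b, which was not called, with DESeq2 size factors. The summed level of the Mir106b cluster was 11299 CPM and moved to 12270 when the totals excluded the top gene and to 6951 with several-place reads added to them. The Mir106a cluster, at 197 CPM, moved to 213 and 121 under the same changes, to 2599 with identical copies summed into the members and to 122 with them left out. The ratio of the clusters moved from 57.4 to 4.36 with copies summed, 92.6 with copies left out and 52.6 per kilobase of hairpin. The members' share of the 15 genes was 33.9% and became 36.3% with copies left out. Leaving out each library in turn gave 10760 to 11838 CPM for the Mir106b cluster, 191 to 202 CPM for the Mir106a cluster, 56.4 to 58.5 for their ratio and 32.2 to 35.5% for the share. Depth limits Mir18b and Mir19b-2, with 13 and 12 reads in replicate 1.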
